A study of Mus musculus with 25 samples.

Results

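Liver from mice that lack Mcl-1 in hepatocytes was compared with liver from wild-type mice at 2 months of age. The comparison used 5 of the 25 arrays of the series, chosen by the genotype and age in the sample labels: 3 knockout animals, numbered 137, 64 and 69, and 2 wild-type animals, numbered 31 and 34. The other arrays hold hemizygous livers of 2 months, livers of 12 months, and tumor and non-tumor tissue of older knockout mice. The wild-type mice are littermates, all mice were untreated, and RNA was taken from homogenised whole liver. The knockout animals carry the label "mcl ff"; the Cre line and the deleted exons are not given in the sources used here. With a deletion in hepatocytes, other liver cells of a knockout homogenate may keep an intact gene, which was not tested here.

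Mcl-1 is a survival protein of the BCL-2 family. It binds BH3-only proteins and the effectors BAX and BAK and so holds back the release of cytochrome c from mitochondria that starts apoptosis. Hepatocytes are known to depend on it, and its loss in mouse liver is known for continuing hepatocyte death with compensatory division. The comparison asks which transcripts differ in the young knockout liver.

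Levels are given as the log2 processed signal of a probe minus the 75th percentile of its array, so that 0 is the brightness at that percentile and higher values are brighter. Values follow the order 137, 64, 69 for knockout and 31, 34 for wild-type livers. Differences are knockout minus wild-type with the standard error (SE) of a limma model. In the 5 arrays, 64.2% to 70.1% of probes were well above background in knockout livers and 60.3% to 63.1% in wild-type livers. Levels over all genes correlated at r = 0.958 to 0.970 among knockout arrays, at 0.958 between the wild-type arrays and at 0.939 to 0.963 between the groups. No slide held arrays of both groups: the wild-type arrays lay on 1 slide, knockout 137 on another and knockouts 64 and 69 together on yet another. With the slide as a block the estimate uses knockout 137 alone among the knockout animals, through the hemizygous arrays that share its slide and the wild-type slide, and gives knockouts 64 and 69 a weight of 0. Of 120 genes and transcripts given by name, 93 kept at least 0.5 times their difference with the same sign under that block, 21 kept less and 6 turned sign, and most of these values stand beside the genes. Cd3e, Fosb, Lrat and Colec10, also given below, were not among the 120. The labels give neither sex nor time of collection. Xist, which coats the silent X chromosome, exceeded background on 1 of 3 knockout arrays (-7.74, -7.98, -0.61) and on 1 of 2 wild-type arrays (-1.14, -6.13), and Ddx3y of the Y chromosome showed the converse (1.31, 0.77, -7.17 in knockout, against -6.66, 1.71 in wild-type livers).

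Mcl1 fell in knockout liver. Its probe (gene on GRCm38.p6 chromosome 3, 95656944 to 95663179) read 1.84, 1.52 and 2.09 in the knockout animals, against 4.02 and 4.49 in the wild-type animals. Every knockout array was below both wild-type arrays. The difference was -2.44 (SE 0.37, adjusted p = 0.045), a 5.41-fold lower signal, and a second probe of the same transcript read -0.90, -1.31 and -0.86 against 2.15 and 2.16, a difference of -3.18. With the slide as a block the difference was -2.05 and did not pass. Probe positions relative to the deleted exons were not available here, so the residual signal cannot be divided between undeleted cells and shortened transcripts.

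The other survival proteins of the family did not pass the test. Bcl2a1b, a survival protein of blood cells with near-identical copies in the mouse, differed by 2.56 (SE 0.82, adjusted p = 0.39), with -0.73, -0.68 and 0.24 in knockout and -2.94 and -2.96 in wild-type livers. Bcl2 differed by 0.80 and Bcl2l2, which encodes BCL-W, by -0.14. Bcl2l1, which encodes BCL-XL, had probes of opposite sign and is given no direction. Of 9 effectors and channel partners none passed in either direction, and their median was -0.12: the effector Bax differed by 0.40 and the apoptosome scaffold Apaf1 by 0.81. Among 11 BH3-only and BNIP genes 1 passed, and it was lower: Bnip3. The others included Pmaip1, which encodes NOXA, at 1.46 (SE 0.67; 0.65 with the slide as a block), and Bbc3, which encodes PUMA, at 0.94.

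In all, 7 of 27108 genes and unnamed transcripts passed adjusted p under 0.05, which is 0.0258%, with 3 higher (0.0111%) and 4 lower (0.0148%) in knockout liver. Without adjustment 2384 (8.79%) had p under 0.05, 1220 of them higher. The 4 that fell were Mcl1, Eif4ebp3, Gpcpd1 and Bnip3. The 3 that rose were Tubb2a, Rnf25 and a transcript without a symbol.

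Eif4ebp3 encodes a member of the 4E-BP family, which binds the cap-binding factor eIF4E and restrains translation. Its levels were 1.70, 1.83 and 2.08 in knockout and 5.03 and 4.63 in wild-type livers. The groups lay far apart in relation to their spread, with a difference of -2.96 (SE 0.39, adjusted p = 0.028). Gpcpd1, a phosphodiesterase that cleaves glycerophosphocholine (chromosome 2, 132529082 to 132578248), read 1.96, 1.81 and 1.89 in knockout and 4.51 and 5.10 in wild-type livers. Its difference was -2.92 (SE 0.40, adjusted p = 0.028), a 7.56-fold lower signal, and its 3 probes ran from -3.10 to -2.92. Bnip3, a protein of the outer mitochondrial membrane that serves as a mitophagy receptor (chromosome 7, 138890836 to 138909506), read 4.2, 4.04 and 4.50 in knockout and 6.16 and 6.02 in wild-type livers. Its difference was -1.84 (SE 0.26, adjusted p = 0.028). Its close relative Bnip3l, also a mitophagy receptor, differed by -0.25 (SE 0.24, adjusted p = 0.85).

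Tubb2a, a beta-tubulin (chromosome 13, 34074278 to 34078008), read 6.64, 6.73 and 6.74 in knockout and 3.43 and 2.77 in wild-type livers. The knockout animals were nearly equal, and the difference was 3.61 (SE 0.51, adjusted p = 0.028), a 12.2-fold higher signal. Rnf25, a ubiquitin ligase (chromosome 1, 74593748 to 74601397), read -1.11, -1.14 and -1.10 in knockout and -2.97 and -3.18 in wild-type livers, a difference of 1.96 (SE 0.30, adjusted p = 0.045). It is a dim probe: with normexp background correction and quantile normalization the difference was 0.92 (adjusted p = 0.088). The unnamed transcript, probe A_51_P361620, was well above background on all knockout arrays (-1.38, -1.18, 1.81) and on no wild-type array (-6.78, -7.35). It was at least 37.1-fold higher in knockout liver (adjusted p = 0.028), where such a bound sets the knockout mean against the dimmest signal that counts as well above background on the wild-type arrays. It was chosen after its values were seen. Bounds of this kind hold on the scale of the processed signal only. With normexp, which adds an offset of 50 before the log2, the difference of this probe was 2.62, and with the series matrix it was 4.40. For the genes given below with a bound the normexp differences were 2.24 for Gpnmb, 1.45 for Fos, 1.11 for S100a8, 0.71 for Kif2c, 0.65 for Mmp13, 0.65 for Retnlg, 0.49 for Il1a, 0.21 for Cxcr2 and 0.21 for E2f7, all of them below the size of the bound.

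**Figure D1:**
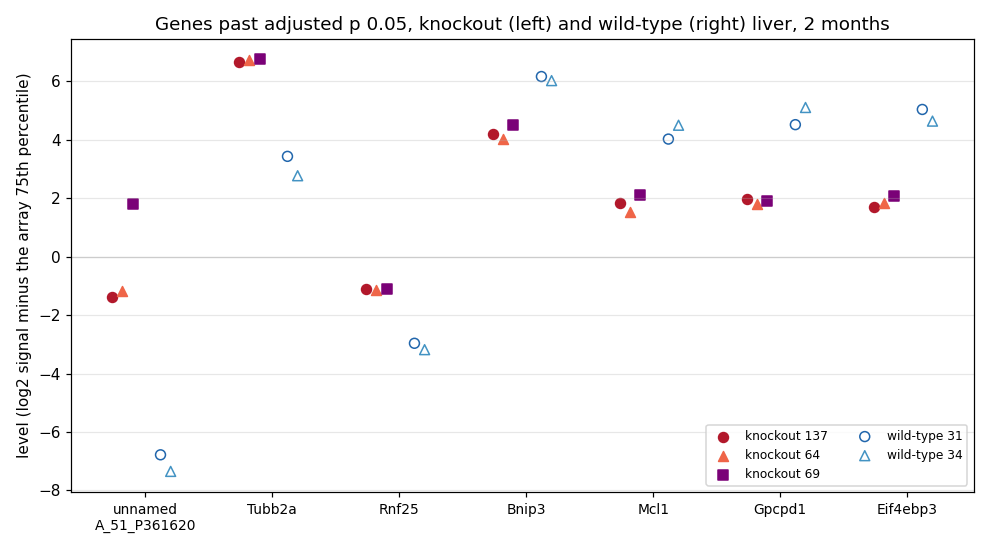
Levels (log2 signal minus the array's 75th percentile, y axis) of the 7 transcripts past adjusted p 0.05, with the 3 knockout animals as filled points left of the 2 wild-type animals as open points. In each transcript the groups do not overlap; the unnamed transcript spans -1.38 to 1.81 in knockout livers and was not above background in wild-type livers.

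These calls rest on every array compared. Without any one knockout animal 0 genes passed, without wild-type 31 the count was 1 and without wild-type 34 it was 3, none of them among the 7. Blocking on the slide, with 1 knockout animal in the estimate, passed 46 genes, again none of the 7, although the signs were kept: Eif4ebp3 -3.50, Gpcpd1 -2.85, Bnip3 -1.33, Tubb2a 3.29 and Rnf25 2.13. A model of the 8 arrays of 2 months alone passed 112 genes, 86 of them higher, including 6 of the 7. A model of only the 5 arrays compared passed 0 genes, and so did the slide as a random block.

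Gene groups are described by the differences of all their measured members. A gene is called separated where the groups do not overlap and the difference is at least 1 log2 unit. Of all genes, 2099 (7.74%) were separated and higher in knockout liver and 1538 (5.67%) were separated and lower, the median difference was -0.01 with quartiles of -0.40 and 0.46, and 49.0% were above 0. A further property of whole liver holds throughout: a higher level of a marker from more cells of a type cannot be told apart from more RNA per cell.

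**Figure D2:**
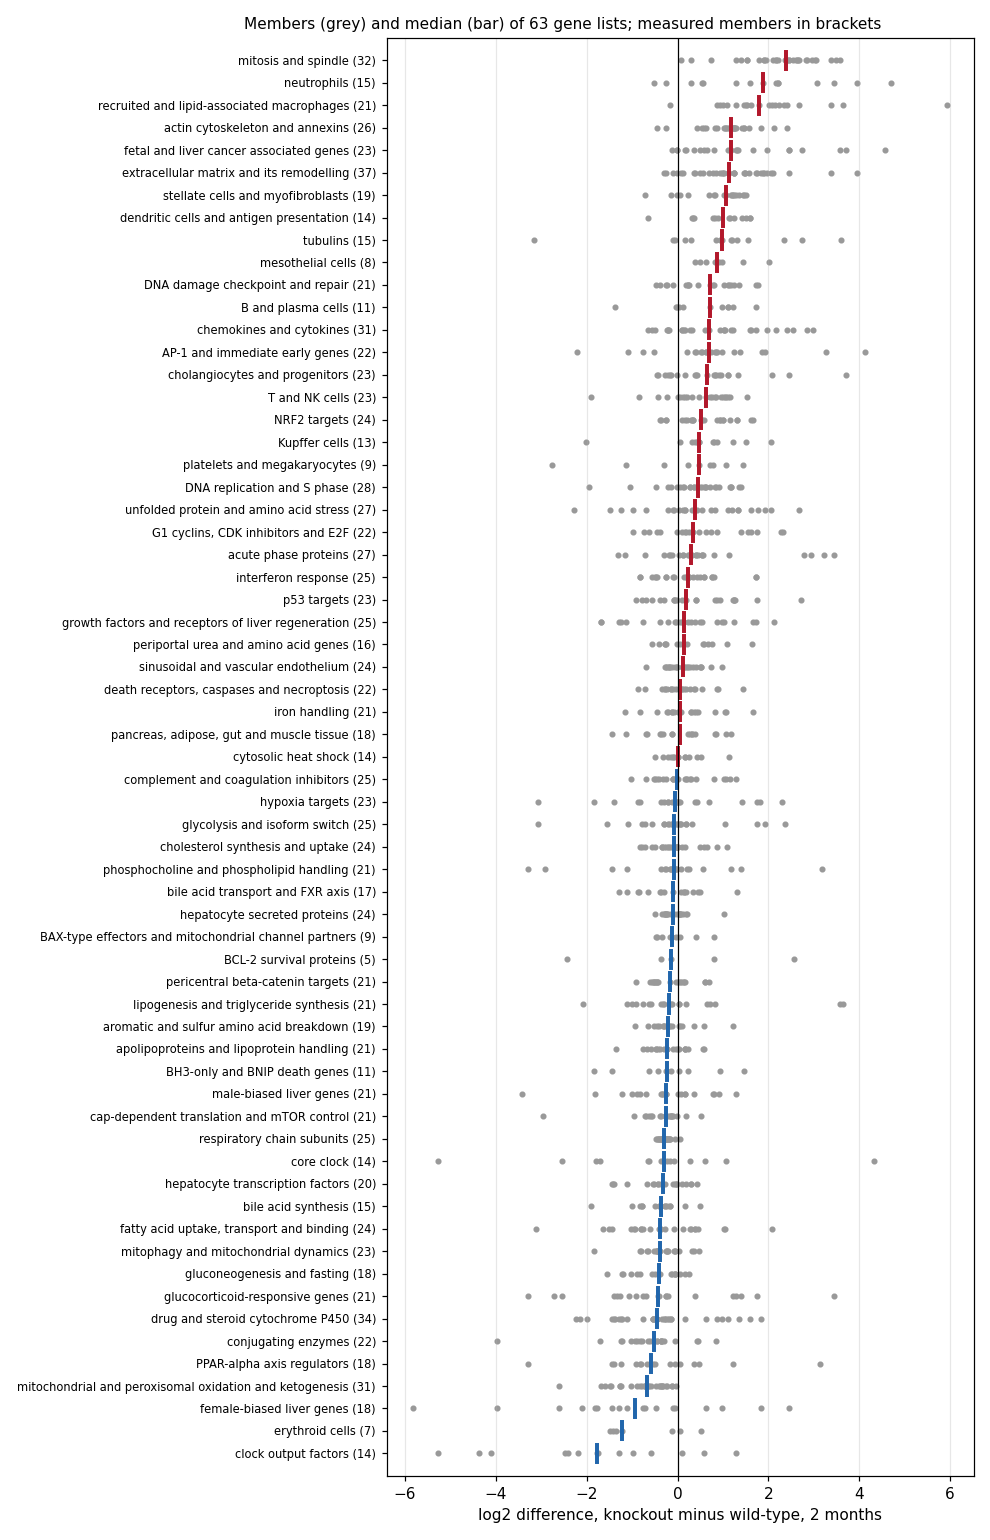
Log2 difference, knockout minus wild-type liver at 2 months (x axis), of each measured member (grey points) and the median (bar) of 63 gene lists (rows, measured members in brackets). Mitosis genes had the highest median at 2.40 and clock output factors the lowest at -1.77; members of most lists lie on both sides of 0.

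Transcripts of mitosis made up the group that stood highest. All 32 measured mitosis and spindle genes had a positive difference, 28 were separated, and the median was 2.40, while 0 passed the test singly. Cdc20, the activator of the anaphase-promoting complex, read 2.52, 4.66 and 1.47 in knockout and -0.62 and -0.61 in wild-type livers (difference 3.50, SE 1.0, adjusted p = 0.33). Aurka, the centrosomal kinase, read 0.93, 2.81 and 0.67 in knockout and -0.90 and -0.93 in wild-type livers (2.38, SE 0.67). Plk1, a kinase of mitotic entry, read 0.96, 2.91 and -0.01 in knockout and -1.74 and -1.74 in wild-type livers (3.03, SE 1.02). In these 3 genes the knockout animals lay far apart while the wild-type animals were nearly equal, and animal 64 was highest in all 32. The mean level of the list was -1.34, 0.36 and -2.23 in knockout and -3.26 and -3.32 in wild-type livers, so each knockout animal lay above both wild-type animals by a different amount. Ube2c, the ubiquitin-conjugating enzyme of the same complex, differed by 2.62 (SE 0.75), and the spindle assembly factor Tpx2 by 2.96 (SE 0.95). With the slide as a block Cdc20 was at 1.60 and Tpx2 at 1.35. Kif2c, a microtubule-depolymerising kinesin of the centromere, was above background on 3 knockout and no wild-type arrays and was at least 4.91-fold higher. The 4 members that were not separated, chosen after their values were seen, were Ect2 (1.29), Mad2l1 (0.73), Cdc25c (0.29) and the centromeric histone Cenpa (0.07). Leaving out any one array of the model gave medians from 1.68 to 2.93, and with the slide as a block the median was 1.33, with 31 of 32 above 0.

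**Figure D3:**
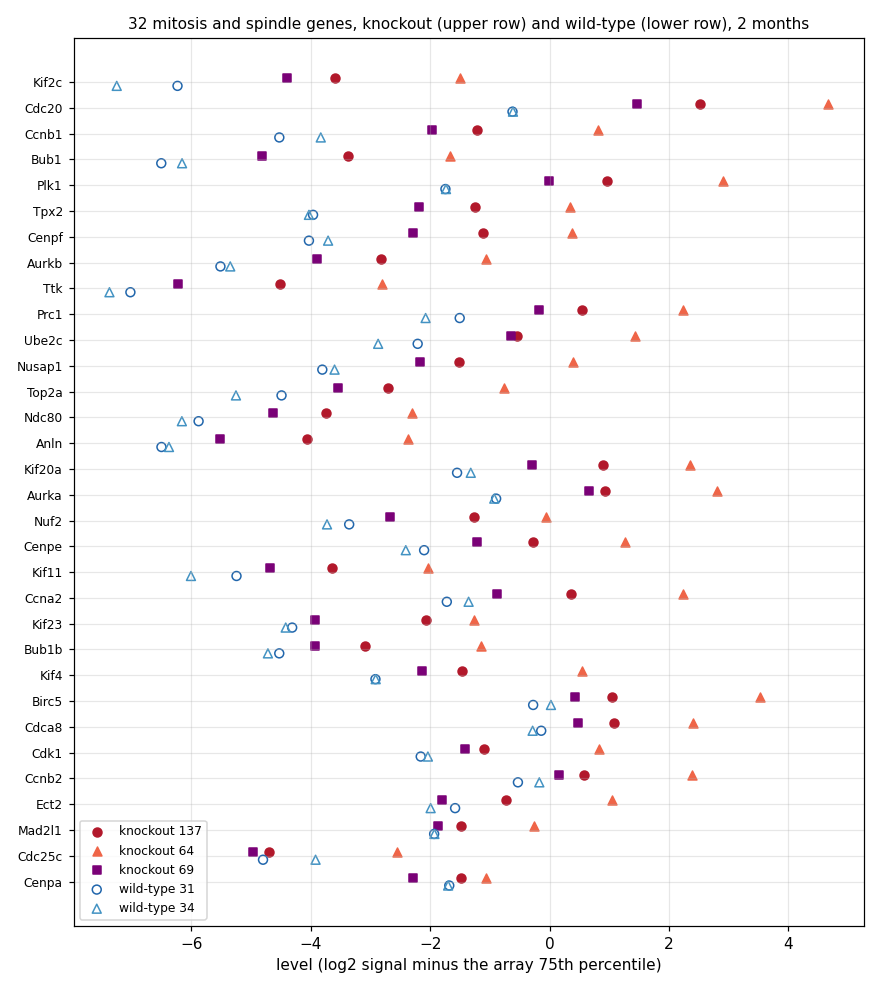
Levels (x axis, log2 signal minus the array's 75th percentile) of 32 mitosis and spindle genes (rows, ordered by difference), knockout animals as filled points above wild-type animals as open points. Animal 64 is highest in all 32 rows; Cdc20 at the top of the range read 4.66 in it, and the rows of Cenpa and Cdc25c overlap between the groups.

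The promoters of 27 of the 32 mitosis genes were in the RefSeq table of GRCm38.p6. Promoters of this group are known in mammals for CCAAT boxes, bound by NF-Y, and for the cell cycle genes homology region, or CHR, through which repressing and activating complexes of the MuvB core act. In the 250 bases before the gene start the CHR letters TTTGAA, read on both strands, occurred in 10 of 29 windows (34.5%), against 5252 of 32851 windows of all promoters (16%). The letters CCAAT occurred in 22 of 29 windows (75.9%), against 33.8% of all, and both together in 9 (31%), against 5.55%. The windows of Cdc20 (chr4:118437344-118437593, minus strand) and Aurka (chr2:172370571-172370820, minus strand) are shown 5′ to 3′, ending at the base before a listed start. These genes had the smallest p of the group and carry the letters in different combinations. The Aurka window lies within the listed span of the gene, which ends at 172370886, so it precedes a start inside that span. Capitals mark CCAAT and TTTGAA as found on the gene's strand.
Cdc20: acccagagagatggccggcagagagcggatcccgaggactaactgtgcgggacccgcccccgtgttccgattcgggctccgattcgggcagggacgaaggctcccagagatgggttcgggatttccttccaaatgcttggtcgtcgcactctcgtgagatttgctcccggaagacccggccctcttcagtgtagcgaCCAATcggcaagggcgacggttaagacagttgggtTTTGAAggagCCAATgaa
Aurka: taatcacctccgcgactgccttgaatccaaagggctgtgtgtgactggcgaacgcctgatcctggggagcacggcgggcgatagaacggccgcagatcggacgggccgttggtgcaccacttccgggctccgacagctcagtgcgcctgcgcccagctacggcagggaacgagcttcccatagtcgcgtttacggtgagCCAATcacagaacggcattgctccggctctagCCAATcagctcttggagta
In Cdc20 the boxes start 53 and 8 bases before the gene start with the CHR letters at 18. In Aurka the CCAAT boxes start 51 and 19 bases before the start used, with no CHR letters in the window.

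Genes of the phases before mitosis were less far apart. DNA replication and S phase genes were higher in 22 of 28, with 4 separated and higher, 2 separated and lower and a median of 0.46. Fen1, the flap endonuclease of lagging strands, differed by 1.17 (SE 0.50; 0.18 with the slide as a block) and Gins2 of the replicative helicase by 1.36 (SE 0.68). Mcm10, a replication initiation factor, ran the other way at 3.95, 4.27 and 3.08 in knockout against 5.37 and 6.05 in wild-type livers. The list's mean level was -0.34, 1.07 and -0.22 in knockout and -0.05 and -0.37 in wild-type livers, so only animal 64 stood clear of the wild-type animals, and with the slide as a block the median was -0.14. Among 22 genes of G1 control, 6 were separated and higher and none lower. E2f2, an activating E2F factor, read -0.09, 0.55 and 0.52 in knockout and -2.31 and -1.61 in wild-type livers (2.29, SE 0.38, adjusted p = 0.056), and unlike the mitosis genes it differed little among the knockout animals. Foxm1, the transcription factor that drives mitotic genes, differed by 2.32 (SE 0.94), the repressor E2f7 was at least 2.45-fold higher and the pocket protein Rbl1 differed by 1.39 (0.41 with the slide as a block). The CDK inhibitor Cdkn1a read -0.72, -0.82 and -0.23 in knockout and -1.46 and -3.24 in wild-type livers (1.76, SE 0.72, adjusted p = 0.51). Of 23 p53 targets 5 were separated and higher, led by the stress cytokine Gdf15 at 2.72 (SE 0.81), with 3.63, 1.84 and 2.35 in knockout against -0.30 and 0.08 in wild-type livers. Their median was 0.18. The DNA damage list had 16 of 21 above 0 with a median of 0.72, which was -0.02 with the slide as a block.

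Tubulins were higher beyond Tubb2a. Of 15 measured tubulins 12 had a positive difference, 7 were separated and higher, 1 was separated and lower and 1 passed, and the median was 0.98. Tubb6 read 2.61, 3.85 and 4.06 in knockout and 1.51 and 0.81 in wild-type livers (2.35, SE 0.57), and Tubb5 read 4.66, 5.20 and 4.97 against 3.56 and 3.22 (1.56, SE 0.42). Tubb2b, chosen after its values were seen, was above background on both wild-type arrays (-1.06, -4.62) and on no knockout array, and so was at least 7.30-fold lower on these arrays. That rests on wild-type 31: the difference of -3.16 was -1.39 without it, -0.86 with normexp and 0.88 with the slide as a block. Tubb2a and Tubb2b are near-identical copies, so cross-hybridisation between their probes was not separable here. Actin-associated genes and annexins were higher in 24 of 26 with 18 separated, none passing, and a median of 1.18. Actg1, gamma-actin, read 3.90, 4.49 and 6.76 in knockout and 3.04 and 2.83 in wild-type livers, Anxa2 differed by 2.41 (SE 0.77) and Tagln by 1.46 (SE 0.42). Blocked on the slide, the medians were 0.88 for tubulins and 0.60 for actin-associated genes, and Actg1 was at 0.13 and Anxa2 at 0.88.

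Several single genes stood just short of the threshold. Higher were Lrfn3, a synaptic adhesion protein (3.85, 3.37, 2.78 in knockout, against 1.02, 1.06 in wild-type livers; 2.29, adjusted p = 0.053), Robo1, the receptor of Slit guidance cues (3.27, adjusted p = 0.057), and Tnfaip2, a TNF-induced protein (2.58, adjusted p = 0.057). Rps6kl1, a kinase-like relative of the ribosomal S6 kinases, read -1.23, -1.81 and -1.47 in knockout against -4.58 and -4.54 in wild-type livers, though only 1 of the wild-type arrays was above background and with other background corrections the difference went down to 1.15. The amino acid transporter Slc1a4 differed by 2.67 (SE 0.49, adjusted p = 0.10). Lower were Arhgef26, a guanine nucleotide exchange factor (0.35, 0.32, 0.43 in knockout, against 2.77, 3.02 in wild-type livers; -2.53, adjusted p = 0.056), Map2k6, a kinase that activates p38 (-2.12, adjusted p = 0.056), and Gys2, the liver glycogen synthase. Gys2 read 4.84, 4.55 and 4.69 in knockout and 6.67 and 6.92 in wild-type livers, a difference of -2.10 (SE 0.39, adjusted p = 0.11). Among the named genes that did not pass, the most negative and most positive differences were those of Rgs16, a regulator of G protein signalling, at -6.64 (SE 1.74, adjusted p = 0.28; -0.19, -1.72, -2.62 in knockout, against 5.50, 4.77 in wild-type livers), and Gpnmb, a lysosomal glycoprotein of lipid-laden macrophages, at 5.93 and at least 29.4-fold higher.

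Myeloid transcripts were also higher. Of 21 measured markers of recruited and lipid-associated macrophages, 20 had a positive difference, 17 were separated and none passed, with a median of 1.80. Trem2, a lipid-sensing receptor of these cells, read 0.59, 1.81 and 2.16 in knockout and -2.04 and -2.22 in wild-type livers (3.65, SE 0.96, adjusted p = 0.29). Gpnmb read -1.92, -0.29 and 0.47 in knockout livers and was not above background in wild-type livers (-6.99, -6.04). Ccr2, a chemokine receptor of monocytes, read -2.40, -2.38 and -2.35 in knockout and -4.81 and -4.39 in wild-type livers, with 1 of 2 wild-type arrays above background. Spp1, osteopontin, chosen after its values were seen, was the 1 member below 0 at -0.16. The mean level of the list was 0.33, 0.90 and 1.05 in knockout and -1.22 and -1.25 in wild-type livers. Markers of resident Kupffer cells differed less: 12 of 13 were above 0, 3 were separated and higher and 1 lower, and the median was 0.48. The scavenger receptor Marco differed by 2.06 (SE 0.86) and Cd163 by -2.02 (SE 1.36). The slide-blocked medians were 1.29 for recruited macrophages, with 21 of 21 above 0, and 0.47 for Kupffer cells.

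Neutrophil markers were higher in 13 of 15 with 9 separated and a median of 1.89, and none passed. S100a9, a subunit of calprotectin, read 0.54, 2.38 and 0.89 in knockout and -3.15 and -2.20 in wild-type livers (3.95, SE 0.67, adjusted p = 0.057), and its partner S100a8 was at least 11.4-fold higher (adjusted p = 0.057). The granule protein Lcn2, which hepatocytes also make in the acute phase, read -1.14, 3.80 and 1.42 in knockout and -1.53 and -2.66 in wild-type livers. Most members, and most of the separated ones, were above background on no wild-type array, and some of these on only 1 knockout array. The member at the median was itself undetected in wild-type livers, so the median rests on dim probes. Retnlg and Cxcr2 were above background on knockout arrays alone, at least 3.95-fold and 1.63-fold higher. Of 31 chemokines and cytokines 24 were above 0, 14 were separated and higher and none lower, with a median of 0.70. Ccl2, the ligand of CCR2, read -0.61, -1.65 and 0.24 in knockout and -3.68 and -3.63 in wild-type livers (2.98, SE 0.78), and Il1b read -0.70, -1.99 and -1.21 against -4.13 and -3.55 (2.54, SE 0.63). Il1a was at least 4.30-fold higher. Blocked on the slide, the medians were 2.29 for neutrophils and 0.93 for chemokines, while Lcn2, whose difference was 3.45, was at 0.75.

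Lists of other blood cells differed in direction. For T and NK cells 19 of 23 markers were above 0 and 5 were separated (median 0.62). The only member with an unadjusted limma p under 0.05 was the T cell marker Cd3e, which ran the other way at -1.91 (adjusted p = 0.52). It read -2.56, -1.59 and -3.41 in knockout and 0.74 and -1.97 in wild-type livers, so the groups overlapped. In this list 3 members were above background on none of the 5 arrays. For dendritic cells and antigen presentation 13 of 14 were above 0 and 6 were separated (median 1.01). B and plasma cell markers had a median of 0.71 (0.07 with the slide as a block). In each of these lists the mean level of every knockout animal lay above both wild-type animals. The T and NK means were -3.63, -4.01 and -4.05 in knockout and -4.13 and -4.50 in wild-type livers. The dendritic means were -1.08, -0.92 and -0.90 against -1.84 and -1.87. Erythroid genes had a median of -1.23, with 3 of 7 separated and lower and a slide-blocked median of -0.17: Hbb-bt read 5.09, 5.75 and 3.50 in knockout and 6.31 and 6.12 in wild-type livers. Sinusoidal and vascular endothelial markers had a median of 0.12, with 0 of 24 separated.

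Many stellate cell and myofibroblast markers and matrix genes were higher as well. Of 19 stellate cell and myofibroblast markers 16 were above 0 and 3 below, and 10 were separated and higher, with a median of 1.07. Not all differed: Lrat and Colec10, chosen after their values were seen, were at 0.225 and 0.047. Of 37 matrix genes 33 were above 0, 19 separated and higher and none lower, with a median of 1.13. None of either group passed. Pdgfrb, the growth factor receptor of stellate cells and pericytes, read 1.67, 1.77 and 1.56 in knockout and 0.10 and 0.23 in wild-type livers (1.50, SE 0.44, adjusted p = 0.34). The knockout animals were alike in it, unlike in the mitosis genes. Loxl2 and Loxl1, which cross-link collagen and elastin, differed by 1.75 (SE 0.40, adjusted p = 0.22) and 2.45 (SE 0.59, adjusted p = 0.25), Loxl1 with -0.24, 0.38 and 0.16 in knockout against -2.28 and -2.42 in wild-type livers. The gelatinase Mmp2 differed by 2.10 (SE 0.76), the collagenase Mmp13 was at least 5.23-fold higher and Ccn1, a matricellular protein, differed by 1.72 (SE 0.53). With the slide as a block the medians were 0.69 for stellate cells and 0.74 for matrix, with Loxl1 at 0.91 and Mmp2 at 0.74.

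**Figure D4:**
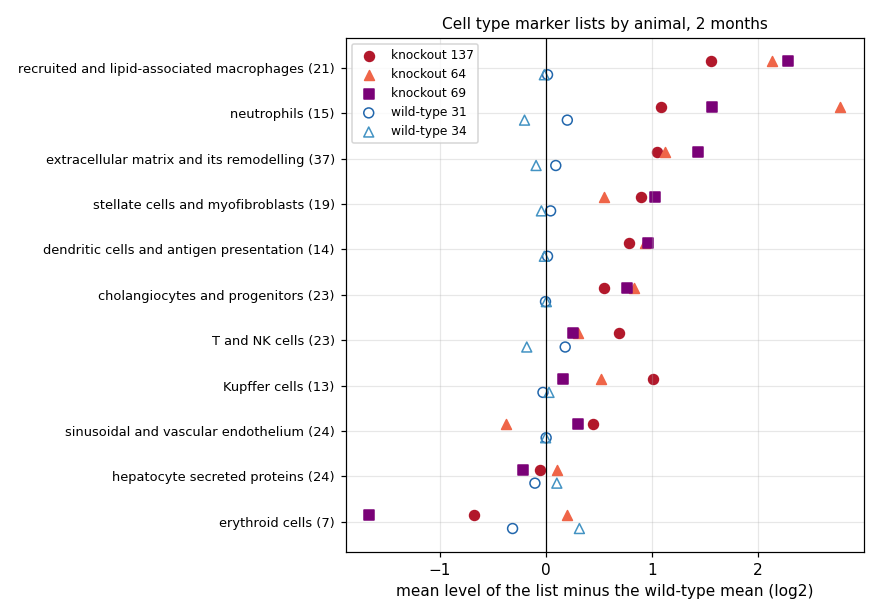
Mean level of each cell type marker list in each animal minus the wild-type mean (x axis, log2; measured members in brackets), knockout animals as filled points above wild-type animals as open points. All 3 knockout animals lie above both wild-type animals for recruited macrophages, neutrophils, matrix and stellate cells, among other lists. Hepatocyte secreted proteins, from 7.51 to 7.84 in knockout and 7.63 to 7.83 in wild-type livers, overlap.

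Progenitor and fetal genes were partly higher. Among 23 cholangiocyte and progenitor markers 4 were separated and higher, with a median of 0.66. Sox9, a transcription factor of bile duct cells and progenitors, read -0.27, -0.22 and -0.18 in knockout and -2.36 and -2.26 in wild-type livers (2.09, SE 0.73, adjusted p = 0.43). Fetal and liver cancer associated genes were higher in 20 of 23 with 10 separated and a median of 1.18 (0.67 with the slide as a block). Phlda2, an imprinted gene known to restrain placental growth, read -1.28, -1.16 and 0.49 in knockout and -3.60 and -3.18 in wild-type livers (2.74, SE 0.54, adjusted p = 0.16). Ly6d read 0.24, 3.96 and 2.51 against -2.33 and -2.31, so animal 137 stood nearer the wild-type animals than the others. Spon2, a matrix protein, differed by 2.45 (SE 0.77).

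Clock genes formed the group that stood lowest, with both arms of the cycle apart. The time of collection is not known for any animal, so genotype and time of collection cannot be told apart in these genes. Among the older wild-type livers of 12 months the SD was 3.25 for Dbp, 3.12 for Ciart and 0.52 for Per2. The clock runs on the activators CLOCK and BMAL1, the product of Arntl, which bind E-boxes in the Per, Cry, Rev-erb and PAR-bZIP genes, and the products of these genes feed back on the activators. Arntl read 2.58, 2.24 and 0.44 in knockout and -2.41 and -2.72 in wild-type livers (4.32, SE 0.93, adjusted p = 0.20), and Clock read 1.68, 1.03 and 0.86 against -0.09 and 0.34 (1.07, SE 0.39). Their target Per1 read -1.74, -1.17 and 0.97 in knockout and 1.99 and 1.81 in wild-type livers (-2.55, SE 0.79), and Per2 and Per3 differed by -1.80 and -1.70. Ciart, a repressor of the clock, read -7.90, -3.65 and -0.50 in knockout and 1.31 and 1.21 in wild-type livers (-5.28, SE 2.16, adjusted p = 0.52). With normexp Per3 differed by -0.64 and Ciart, above background on 2 of 3 knockout arrays, by -2.76. The knockout animals stood in one order in these genes, with 137 farthest from the wild-type animals and 69 nearest in Per1 and Ciart, and in reverse sign in Arntl.

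Of 14 clock output factors 8 were separated and lower and 1 higher, none passed, and the median was -1.77. The PAR-bZIP factors Tef, Hlf and Dbp differed by -2.42 (SE 0.63), -1.29 (SE 0.36) and -4.10 (SE 1.87), Dbp with -0.20, 3.80 and 4.76 in knockout against 6.54 and 7.23 in wild-type livers. The deubiquitinase Usp2 read -2.56, -2.04 and 0.50 against 3.02 and 2.97 (-4.36, SE 1.28), and Por, the electron donor of microsomal P450 enzymes, read 5.86, 6.81 and 7.61 against 8.62 and 8.41 (-1.76, SE 0.50). Wee1, the kinase that restrains mitotic entry, read -5.01, -4.11 and -5.04 in knockout and -2.43 and -2.64 in wild-type livers (-2.18, SE 0.73). Wee1 was above background on 2 of 3 knockout arrays, and its difference was -0.62 with normexp. The member separated the other way was Nr1d1, which encodes REV-ERB-alpha, at 1.29 (SE 1.43), chosen after its values were seen, and it was at -1.05 with the slide as a block. The mean level of the output factors was 0.59, 1.78 and 2.15 in knockout and 3.28 and 3.34 in wild-type livers. With the slide as a block, which takes animal 137 alone, their median was -1.94, Arntl differed by 5.73 and Dbp by -7.07. The core clock list as a whole, which holds both arms, had a median of -0.29.

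**Figure D5:**
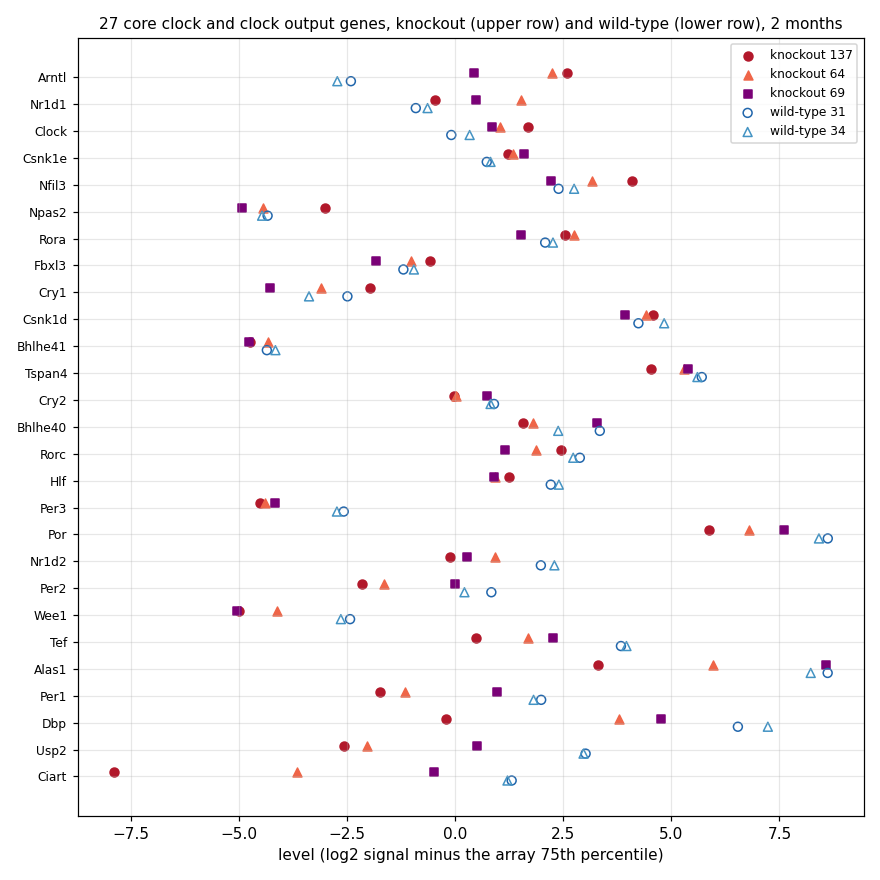
Levels (x axis, log2 signal minus the array's 75th percentile) of 27 core clock and clock output genes (rows, ordered by difference), knockout animals as filled points above wild-type animals as open points. Arntl at the top is higher and Ciart, Usp2, Dbp and Per1 at the bottom are lower in all 3 knockout animals, with knockout 137 farthest from the wild-type points in Ciart, Dbp and Arntl.

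The promoter table held 21 of the 27 clock genes. The palindromic E-box CACGTG occurred in 7 of their 31 windows of 250 bases (22.6%), against 1978 of 32851 windows of all promoters (6.02%), and in 6 genes. The windows of Ciart (chr3:95882229-95882478, minus strand) and of an upstream start of Per1 (chr11:69098699-69098948, plus strand) are shown 5′ to 3′ with CACGTG in capitals, since these genes hold the letters and were both lower.
Ciart: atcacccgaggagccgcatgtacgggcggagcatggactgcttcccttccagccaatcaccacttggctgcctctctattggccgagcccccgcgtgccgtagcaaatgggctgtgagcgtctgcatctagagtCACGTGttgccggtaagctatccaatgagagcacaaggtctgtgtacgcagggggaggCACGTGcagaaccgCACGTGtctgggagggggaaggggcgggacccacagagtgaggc
Per1: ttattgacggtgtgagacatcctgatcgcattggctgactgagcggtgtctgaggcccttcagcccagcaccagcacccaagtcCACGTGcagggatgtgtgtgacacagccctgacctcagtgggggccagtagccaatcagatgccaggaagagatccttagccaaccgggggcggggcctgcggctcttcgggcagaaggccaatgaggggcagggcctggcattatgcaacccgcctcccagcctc
Ciart held 3 E-boxes, starting 116, 58 and 44 bases before the start used. Per1 held 1, starting 166 bases before the start shown, with no CACGTG in the window of the other start used. Both Per1 windows lie inside the listed span of the gene, which begins at 69095108. The Ciart window lies partly inside its span, which ends at 95882257.

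Genes of fatty acid oxidation were lower by small amounts. All 31 measured enzymes of mitochondrial and peroxisomal oxidation and ketogenesis had a negative difference, with a median of -0.67, 4 separated and lower and none passing. The mean level of the list was 3.941, 4.535 and 4.819 in knockout and 5.519 and 4.908 in wild-type livers. Knockout 69 thus lay close to wild-type 34, and the wild-type animals lay farther apart than that. Eci2, an enoyl-CoA isomerase, read 5.99, 6.27 and 6.54 in knockout and 7.40 and 7.65 in wild-type livers (-1.26, SE 0.37, adjusted p = 0.34). Blocked on the slide, 28 of 31 were below 0 and the median was -0.72. Upstream of them Cpt1a, which admits acyl chains to mitochondria, read 4.33, 4.57 and 4.73 in knockout and 6.07 and 5.88 in wild-type livers (-1.43, SE 0.36), and Ppara, the nuclear receptor that controls these enzymes, differed by -1.41 (SE 0.52). Angptl4, a secreted inhibitor of lipoprotein lipase, read 5.66, 2.79 and 3.89 against 7.02 and 7.42 (-3.11, SE 0.81; -0.77 with the slide as a block). Pdk4, which inhibits pyruvate dehydrogenase, ran the other way at 3.13 (SE 0.84). Subunits of the respiratory chain were below 0 in 24 of 25 with a median of -0.29, and 0 were separated; with the slide as a block the median was -0.01.

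Phospholipid and glucose genes included large single differences around medians near 0. Lpin1, a phosphatidate phosphatase and coactivator, read 2.15, 3.12 and 4.18 in knockout and 6.61 and 6.27 in wild-type livers (-3.29, SE 0.72, adjusted p = 0.21), and Lpin2 differed by -1.45 (SE 0.42). Beside the fall of Gpcpd1, Chka, the first kinase of phosphatidylcholine synthesis, read 2.26, 2.93 and 1.18 in knockout and -0.98 and -1.13 in wild-type livers (3.18, SE 0.81, adjusted p = 0.28). Among glycolysis genes the median was -0.07, yet Pkm, the pyruvate kinase of tissues other than adult hepatocytes, differed by 1.93 (SE 0.46), Pfkp, the platelet phosphofructokinase, by 2.36 (SE 0.67) and Hk2 by 1.74 (Pkm 0.51 and Pfkp 0.70 with the slide as a block), while the hepatocyte glucose transporter Slc2a2 differed by -1.55 (SE 0.39) and Pfkfb3 by -3.07 (SE 0.70). Of 18 gluconeogenesis and fasting genes 3 were separated and lower: Foxo1 (-1.22, SE 0.28), the glucose-6-phosphate transporter Slc37a4 (-1.56, SE 0.42) and Foxo3 (-1.19). Foxo3 was above background on 2 of 3 knockout arrays, and its difference was -0.22 with normexp. Of 21 glucocorticoid-responsive genes, which share Lpin1 and Per1 with other lists, 5 were separated and lower and 3 higher. Fkbp5, a co-chaperone of the glucocorticoid receptor, read -1.26, -0.71 and 0.30 in knockout and 2.92 and 1.41 in wild-type livers (-2.72, SE 0.58, adjusted p = 0.20), and Tsc22d3, which encodes GILZ, differed by -1.40 (SE 0.42; -0.64 with the slide as a block). The medians were -0.40 for gluconeogenesis and -0.44 for glucocorticoid-responsive genes.

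Defining hepatocyte markers were high in both groups. Alb, serum albumin, named to check the tissue, read 10.15, 9.86 and 9.85 in knockout and 9.90 and 10.20 in wild-type livers, and the 24 secreted proteins had a median of -0.10 with none separated and lower. Hepatocyte transcription factors had a median of -0.32 with 4 of 20 separated and lower, conjugating enzymes one of -0.53 with 4 of 22, and cytochromes P450 one of -0.45 with 7 of 34 separated and lower and 3 higher. Cyp3a11, the main inducible drug-metabolising P450, differed by 1.60 (SE 0.34, adjusted p = 0.20), with 8.74, 9.06 and 8.86 in knockout against 7.73 and 6.83 in wild-type livers. P450 families hold near-identical members, so cross-hybridisation was not separable here. The slide-blocked P450 median was -0.06. Periportal and pericentral genes had medians of 0.15 and -0.17, and cholesterol synthesis genes one of -0.08 with none separated.

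Stress and early response genes were mixed. NRF2 targets were higher in 20 of 24 with 4 separated and a median of 0.53, led by Hmox1, heme oxygenase, at 2.30, 2.73 and 3.49 in knockout against 1.16 and 1.18 in wild-type livers (1.67, SE 0.44, adjusted p = 0.28), and by Gclc, the catalytic subunit of glutathione synthesis, at 1.15 (SE 0.33). In the unfolded protein and amino acid stress list 8 of 27 were separated and higher and 2 lower, with a median of 0.38: Mthfd2, a mitochondrial folate enzyme, differed by 2.67 (SE 0.61, adjusted p = 0.22) and Sdf2l1 of the endoplasmic reticulum by 1.78, whereas Herpud1 differed by -1.48. With the slide as a block Hmox1 was at 0.83, Sdf2l1 at 0.84 and Herpud1 at -0.60. Mthfd2 was above background on only 1 of the wild-type arrays, and its difference was 0.795 with normexp. Immediate early genes had a median of 0.68 with 5 of 22 separated and higher and 2 lower. Nr4a1, an orphan nuclear receptor, read 3.11, 1.70 and 2.65 in knockout and -0.84 and -0.69 in wild-type livers (3.26, SE 0.91), and Fos was at least 12.1-fold higher, mostly in animal 137 (0.86, -3.43, -2.45). Fosb ran the other way at -2.22 (SE 0.65, adjusted p = 0.34). It was above background on both wild-type arrays (-2.17, -4.77) and on no knockout array. Acute phase proteins had a median of 0.31. Among the serum amyloid A genes Saa2 read 6.06, 9.27 and 6.88 in knockout and 3.17 and 5.19 in wild-type livers (3.22, SE 0.79), and Saa1, whose sequence is near-identical, differed by 2.93. Animal 64 was highest in both genes; without it Saa2 differed by 2.29 and Saa1 by 1.87. Saa4, the constitutive member, was separated the other way at -1.31 (SE 0.57), and was at 0.31 with the slide as a block. Interferon response genes had a median of 0.23.

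Female-biased genes, a list that holds Xist itself, were high on average on the arrays with high Xist. The mean level of female-biased genes was -1.41, -0.25 and 3.11 in knockout and 3.15 and -0.17 in wild-type livers, and so was high in knockout 69 and wild-type 31. Not every member followed Xist: 1 of 18 was separated and higher in knockout liver. With the Xist level as a covariate 27 genes passed, including all 7, and the medians were 2.29 for mitosis, 2.03 for recruited macrophages, 1.19 for stellate cells, -1.77 for clock output and -0.60 for oxidation enzymes.

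The same contrast at 12 months used other animals, with non-tumor liver of 4 knockout mice and liver of 3 wild-type mice. Of the 2099 genes separated and higher at 2 months, 1281 (61.0%) were also higher at 12 months, against 44.3% of all genes, and 301 (14.3%) did not overlap in the same direction, against 5.29% of all. Of the 1538 separated and lower, 853 (55.5%) were also lower, against 55.7% of all, and 57 (3.71%) did not overlap, against 4.92%. The list medians at 12 months were 2.39 for mitosis, 1.67 for recruited macrophages, 0.78 for neutrophils, 0.38 for stellate cells, 0.08 for tubulins, -0.89 for clock output and -0.72 for oxidation enzymes. Among the transcripts that passed at 2 months, Mcl1 differed by -1.67 at 12 months and the unnamed transcript by 5.49. Bnip3 differed by -0.34, and the sign was turned in Gpcpd1 (0.67) and Rnf25 (-0.46). In Bnip3, Gpcpd1 and Rnf25 the older groups overlapped. At that age Tubb2a averaged 7.0 in the 4 knockout livers (SD 0.22), against 6.76 in the 3 wild-type livers (SD 0.78), so both groups stood near the young knockout animals. Eif4ebp3 averaged 1.74 in the older knockout livers (SD 0.43), against 1.98 in the older wild-type livers (SD 0.58). The older wild-type arrays 552 and 1110 came from another scan day than the other arrays of the model. A test of the difference between the ages passed no gene over all genes (2609 had an unadjusted p under 0.05). It gave -3.36 for Tubb2a (SE 0.67, adjusted p = 0.36), 2.72 for Eif4ebp3 (SE 0.50, adjusted p = 0.32), 3.59 for Gpcpd1 (SE 0.52, adjusted p = 0.13) and 0.77 for Mcl1 (SE 0.48, adjusted p = 0.60). For Rnf25 it gave -2.42 (SE 0.39, adjusted p = 0.14) and for Bnip3 1.50 (SE 0.34, adjusted p = 0.41).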

How the data were processed

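Whole-liver RNA was labelled with Cy3 and hybridised to single-colour arrays. The authors deposited intensity values per spot, written by Agilent Feature Extraction 10.5.1.1 per the file headers, as background-subtracted processed signals without normalization between arrays. A deposited value table holds log2 values whose order within each array was nearly that of the uncorrected median signal (Spearman correlation of 0.99998 or more; column medians 6.57 to 6.58). Its normalization between arrays stays unknown. The submitters' processing notes name limma.

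Unflagged spots of a probe were averaged as log2 processed signal, and the 75th percentile of each array was subtracted. Of 41174 probes, 24375 (59.2%) were named by accession through the RefSeq table of GRCm38.p6. A gene is its probe with the highest mean signal, kept if well above background on 2 or more of 18 arrays (27108 of 33815 features). limma 3.58.1 in R 4.3.3 was fitted to the 18 arrays without tumor tissue as 6 groups (12 residual degrees of freedom), two-sided, with Benjamini-Hochberg adjustment over all features and a threshold of 0.05. An exact permutation of 3 against 2 arrays cannot go below 0.1, so none was used. Each label carries its own animal number. Arrays have no read depth; the number of animals and the dimness of probes limit precision. The fit was tested on simulated data.

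The members, lists and rules were chosen with earlier results of these data known. Named are Mcl1, all genes past the threshold, the separated genes with the smallest p or largest difference each way that were detected on each array of the brighter group, and up to 6 members of smallest p per list; others are marked. Alternatives were normexp with quantile normalization (computed from the median signal, as the files used here hold no mean signal), quantile normalization, the series matrix, 3 filters, averaging a gene's probes, limma's trend and robust settings, blocks for slide or for scan day, Xist as a covariate, 3 other sets of arrays, and each array left out. Motifs were counted on both strands in RefSeq promoters, 250 bases before the gene start.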

Additional observations from a re-analysis of the deposited data

How the results depend on the processing

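No paired analysis was possible because the knockout and wild-type animals share no animal number. Against 7 genes past the threshold at 2 months, the count was 13 with normexp, 24 with quantile normalization and 17 with the series matrix. It was 17 with a filter on all 18 arrays, 18 with a filter on the 5 arrays, 26 with trend and robust options, 46 with slide as a fixed block (knockout 137 alone), 0 with slide as a random block (each of the 7 lost), 27 with Xist as a covariate, 0 on the 5 arrays alone, 112 on the 8 arrays of 2 months and 19 on all 25 arrays. Leaving out 1 array gave 0 to 24: 0 without knockout 137, 64 or 69, 1 without wild-type 31, 3 without wild-type 34, 2 without hemizygous 28, 1 without 12-month knockout 1109, 11 without 638, 13 without 12-month wild-type 1110 and 24 without 8-month knockout 934. The cause was not tested.

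Genes separated and higher or lower numbered 898 and 681 with the filter on all 18 arrays, which tests fewer genes, and ranged from 2099 to 3543 and from 1538 to 2994 on leaving out 1 array, highest without wild-type 34. Groups of fewer arrays overlap less readily, so a rise on leaving out a compared array follows in part from the definition. The test between the ages passed 5 genes with normexp, 1 with quantile normalization, 2 with the series matrix, 1 with the filter on all 18 arrays, 1 with trend and robust options and 206 with scan day as a block, where 12-month wild-type 641 alone stands for its group; with slide as a fixed block it cannot be estimated, as the 12-month knockout arrays share no slide with the other groups of the model. Leaving out 1 array gave 0 to 289, the highest without 12-month knockout 638.

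Signs turned for a few of the 120 genes and transcripts. With slide as a fixed block these were Alb (0.334), Cdc25c (-0.134), Nr1d1 (-1.05), Saa4 (0.308), Spp1 (0.543) and Tubb2b (0.875). Alb was at 0.017 with normexp and 0.033 with quantile normalization, and Bcl2l1 at 0.060 as the mean of its probes. Cenpa was at -0.006 with the series matrix and -0.054 with Xist as a covariate, and Ddx3y at -1.58 with that covariate. Leaving out 1 array gave -0.247 (wild-type 31) to 0.058 (wild-type 34) for Alb, -0.477 (knockout 64) to 0.737 (knockout 69) for Cdc25c, which was also below 0 without wild-type 31 (-0.154), and -0.198 (knockout 64) to 0.413 (knockout 69) for Cenpa. The same range was -3.41 (wild-type 31) to 4.97 (wild-type 34) for Ddx3y, below 0 also without knockout 137 (-0.725) or 64 (-0.455), and -4.30 (wild-type 34) to 0.691 (wild-type 31) for Xist.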
